A study of Mus musculus with 12 samples.

Results

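Integrin subunits were followed through the early nephron and the collecting duct of the embryonic mouse kidney. The 8 genes were Itga3, Itga5, Itga6, Itga8, Itgav, Itgb1, Itgb4 and Itgb5. They were found as every probe set of the array that was annotated to exactly 1 of these symbols. All 8 genes had at least 1 such probe set, and together they held 14 of the 12422 probe sets measured. Across the whole array 10833 probe sets carried 1 gene symbol, covering 8251 genes.

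The samples were structures dissected by shape from kidneys of wild-type Swiss Webster mice at E14.5, in mid-gestation, profiled on the Affymetrix MG_U74Av2 array. No genotype or treatment differed between them, and the labels say that staining and RT-PCR were used to check their identity. The 4 groups held 3 arrays each. Single S-shaped body samples (replicates 3, 4 and 5) came from 1 structure per sample, and pooled S-shaped body samples (replicates 1, 2 and 3) from 20 structures. Renal vesicle samples (replicates 2, 3 and 4) came from 20 structures, and collecting duct samples (replicates 1, 2 and 3) carried a pool size of 1. RNA was extracted with TRIzol and passed through 2 rounds of T7 amplification in every group. Each minimally pooled sample counts as a biological replicate in the labels, which do not say which samples shared an embryo or litter, so the p-values measure the spread between these samples. The number of arrays limits the precision of every value. Between collecting ducts and either of the structures pooled by 20, and between single S-shaped bodies and renal vesicles, the kind of structure and the pool size cannot be told apart.

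Integrins are receptors made of 1 alpha and 1 beta subunit that tie the cytoskeleton to the extracellular matrix. The alpha subunit largely sets the ligand. ITGA3 and ITGA6 form laminin receptors, ITGA5 forms a fibronectin receptor, ITGA8 binds nephronectin, and ITGAV binds ligands with an RGD motif such as vitronectin and fibronectin. ITGB1 is the shared partner of most alpha subunits, ITGB4 pairs only with ITGA6 in hemidesmosomes, and ITGB5 pairs with ITGAV. In the kidney, integrins are known for their part in branching of the ureteric bud, in nephron formation and in anchoring podocytes to the glomerular basement membrane.

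The renal vesicle is the first epithelial stage of the nephron, the S-shaped body is a later stage whose lower cleft takes in vessels, and the collecting duct descends from the ureteric bud. Of 10 markers of nephron progenitors and the early nephron, 7 were above background on all 3 renal vesicle arrays, while Cited1, Pax2 and Fgf8 were above it on none. Of 6 markers of podocyte precursors, 5 were above background on all 3 arrays of both S-shaped body groups, and Podxl on none. Of 12 markers of the ureteric bud and collecting duct, 7 were above background on all 3 collecting duct arrays, and Ret, Wnt11, Wnt7b, Aqp2 and Calb1 on none. Deposited intensities averaged 21.4 to 70.6 per array in single S-shaped bodies, 203 to 239 in pooled S-shaped bodies, 108 to 131 in renal vesicles and 273 to 363 in collecting ducts. The ratio of the 3′ to the 5′ actin control was 75.8 to 91.4, 31.6 to 46.6, 36.1 to 43.3 and 27.7 to 89.4 in those same groups. Background was taken per array from the negative tail of its values, and between 48.3% and 59.7% of probe sets lay above it.

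Itgb5 and Itgav, which encode partner subunits of 1 receptor, both passed the test as higher in pooled S-shaped bodies than in either collecting ducts or renal vesicles. Their promoter windows are shown for that reason. Each runs from 250 bases before to 50 bases after the gene's start, taken from RefSeq on build GRCm38.p6, with GC boxes (GGGCGG on either strand) in capitals. The Itgb5 window is chr16:33829415-33829714 and the Itgav window is chr2:83724147-83724446, both on the plus strand.
Itgb5: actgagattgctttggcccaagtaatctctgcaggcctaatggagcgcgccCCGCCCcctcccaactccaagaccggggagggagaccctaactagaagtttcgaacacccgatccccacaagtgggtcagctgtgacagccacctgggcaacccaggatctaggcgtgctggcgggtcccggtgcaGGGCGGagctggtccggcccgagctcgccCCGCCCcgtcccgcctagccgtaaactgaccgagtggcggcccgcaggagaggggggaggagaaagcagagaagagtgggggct
Itgav: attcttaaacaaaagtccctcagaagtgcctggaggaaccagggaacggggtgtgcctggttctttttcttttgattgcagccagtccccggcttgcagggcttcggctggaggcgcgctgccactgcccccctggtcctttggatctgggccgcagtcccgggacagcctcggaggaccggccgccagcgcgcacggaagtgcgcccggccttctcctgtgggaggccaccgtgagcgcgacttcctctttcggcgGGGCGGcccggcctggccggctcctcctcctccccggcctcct

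The Itgb5 window held 3 GC boxes and the Itgav window 1, and 35.7% of all 32851 windows held at least 1. Their GC content was 65.7% and 67.3%, beside a median of 52.7% over all windows. The E box letters CANNTG occurred 3 times in the Itgb5 window and not in the Itgav window, and 72.3% of all windows held them. Neither window held TATAAA or CCAAT on either strand, which 13.6% and 37.4% of all windows did. Windows were found for 6 of the 8 genes, 7 in all, and a match of letters is a description only. GC boxes were not particular to these 2 genes: Itga5 held 2, Itgb1 1 and the Itga3 windows 3 and 1, while Itga8 held 0. The GC content of those other windows ran from 52.3% to 67.3%.

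Levels are given as log2 of the normalized intensity plus 7.22, a scale with its floor at 2.85. A probe set's level depends on its own probes, so levels are compared between groups and never between genes. For a gene with several probe sets, the one with the highest mean is the main one. In bulk samples such as these, fewer cells of a type and less RNA per cell cannot be told apart.

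Itgb5, the beta subunit that pairs with ITGAV in a vitronectin receptor, had the largest of the changes called in pooled S-shaped bodies among the 7 integrin genes that could be tested. Its main probe set read 8.15, 8.27 and 8.84 in single S-shaped bodies and 8.61, 8.35 and 8.49 in pooled S-shaped bodies. It read 6.60, 7.27 and 6.52 in renal vesicles, and 6.43, 6.79 and 6.86 in collecting ducts. All 6 S-shaped body arrays lay above all 6 others, and within each of these pairs of groups the arrays overlapped. Against collecting ducts, pooled S-shaped bodies were higher by 1.79 ± 0.22 (SE), a 3.45-fold difference (limma, adjusted p = 0.000107). Against renal vesicles they were higher by 1.69 ± 0.22, or 3.22-fold (adjusted p = 0.000223). Single S-shaped bodies were higher by 1.72 ± 0.25 than collecting ducts (adjusted p = 0.00124) and by 1.62 ± 0.30 than renal vesicles (adjusted p = 0.0046).

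In order of mean level, Itgb5 was highest in pooled S-shaped bodies at 8.48 ± 0.13, then single S-shaped bodies at 8.42 ± 0.37, renal vesicles at 6.80 ± 0.41 and collecting ducts at 6.70 ± 0.24 (SD, n = 3 each). The first pair of neighbours did not pass the test (difference of −0.06 for single against pooled, 95% interval −0.56 to 0.43, adjusted p = 0.912). Nor did the last pair (0.10 for renal vesicle against collecting duct, −0.39 to 0.60, adjusted p = 0.786). The main probe set, 162218_f_at, belongs to a class (_f_at) whose probes also match related sequences, as do the main probe sets of Itgav and Itgb1. The probe sets of Itga7, Actn1 and Psg17, which are named further on, carry the same mark. Other marks stand on the second probe sets of Itgav (104385_i_at) and Itgb1 (100124_r_at), and on those of Tln1 (_r_at), Slc30a5 (_i_at) and Lama3 (_s_at). The only Itgav probe set without a mark, 98366_at, was above background on 1 of 12 arrays, and Itgb1 had no probe set without one.

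The second Itgb5 probe set, 100601_at, has no such mark and was called in the same direction, with less certainty about size. It read 8.34, 8.87 and 9.31 in single S-shaped bodies, 9.05, 9.00 and 8.55 in pooled ones, 2.85, 8.04 and 4.71 in renal vesicles and 5.78, 3.89 and 2.85 in collecting ducts. The 6 S-shaped body arrays again lay above the rest, but renal vesicle replicate 3 came close to them while the other renal vesicle arrays were far below. It was above background on all 6 S-shaped body arrays, on 2 of 3 from renal vesicles and on 1 of 3 from collecting ducts, so the fitted sizes rest partly on arrays below background. Pooled S-shaped bodies were called higher than collecting ducts (adjusted p = 0.00535), with fitted changes of 2.96 to 5.50 across the alternatives. They were called higher than renal vesicles (adjusted p = 0.0206, fitted changes of 2.33 to 5.09), and that call was lost with no filter (adjusted p = 0.0951) and without renal vesicle replicate 2 (2.50, adjusted p = 0.0752), renal vesicle replicate 4 (adjusted p = 0.0655), pooled replicate 1 (adjusted p = 0.057) or pooled replicate 2 (adjusted p = 0.0583).

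Sums of endothelial, stromal, podocyte precursor and red blood cell markers were also higher in S-shaped bodies than in both other groups. Endothelial and stromal sums were higher in renal vesicles than in collecting ducts too. Leukocyte sums overlapped between single S-shaped bodies (152 to 389) and collecting ducts (171 to 268). All 11 measured endothelial genes were above background on all 3 pooled S-shaped body arrays, 9 of 11 on all single S-shaped body arrays, 5 on all renal vesicle arrays and 0 on all collecting duct arrays. Their summed normalized intensity was 6598 to 8854 in single S-shaped bodies, 6993 to 8566 in pooled S-shaped bodies, 1539.55 to 3197 in renal vesicles and 59.0 to 91.2 in collecting ducts. In collecting ducts 9 of them, Pecam1, Cdh5 and Kdr included, were above background on no array. The 12 stromal genes summed to 5968 to 7761, 4319.8 to 5723, 396 to 1869.7 and 49.1 to 86.1 in the same order of groups. In collecting ducts 10 of the 12, Foxd1, Pdgfra and Col3a1 among them, were above background on no array. Podocyte precursor genes summed to 5468 to 7166 in single S-shaped bodies, 6104 to 6739 in pooled ones, 1341 to 4638 in renal vesicles and 94.4 to 124 in collecting ducts. Of 10 leukocyte markers, 2 were above background on all arrays of single S-shaped bodies, 2 of pooled ones, 0 of renal vesicles and 1 of collecting ducts. The 5 red blood cell markers summed to 1153 to 4668 in single S-shaped bodies, 5206 to 6925 in pooled ones, 99.0 to 807 in renal vesicles and 124 to 177 in collecting ducts. In pooled S-shaped bodies 4 of them were called higher than in collecting ducts, beside 18.2% of all tested probe sets. Against renal vesicles 4 were called higher too, beside 17.5%, and between single and pooled S-shaped bodies 0 were called. The part of these cell types in the Itgb5 result was not tested.

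Renal vesicle replicate 3 had the highest mean of stromal markers in its group, 6.39 against 4.68 and 5.59, of podocyte precursor markers, 8.09 against 6.14 and 7.02, and of ureteric bud and collecting duct markers, 5.86 against 4.09 and 4.30. For endothelial markers its mean was 6.02, against 6.22 and 5.19. It was also the renal vesicle array with the highest reading of both Itgb5 probe sets. Without it, as with every other single array left out, both differences of pooled S-shaped bodies remained called on the main probe set, with log2 changes of 1.65 to 1.87 against collecting ducts and 1.55 to 1.92 against renal vesicles.

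**Figure D1:**
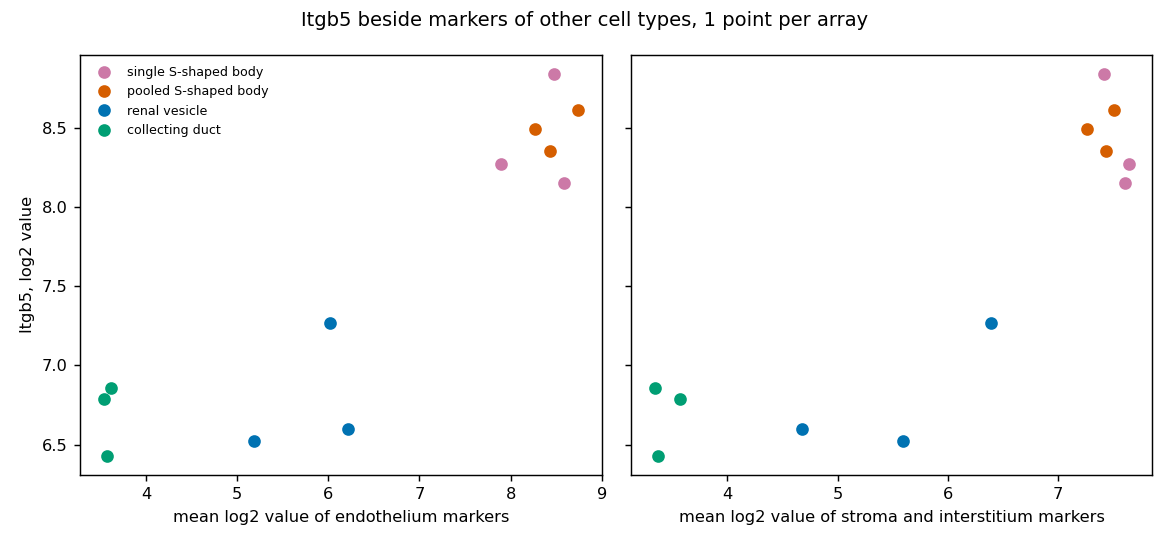
Log2 value of the main Itgb5 probe set on the y axis against the mean log2 value of the endothelium markers (left) and the stroma and interstitium markers (right), 1 point per array, coloured by group. The 6 S-shaped body arrays lie above 8 for Itgb5 and at the high end of both marker lists, and collecting ducts lie at the low end of both.

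Itgav, the alpha subunit of the RGD-binding integrins, showed smaller differences in the same direction. Its main probe set, 104386_f_at, read 11.01, 10.76 and 11.07 in single S-shaped bodies and 11.03, 10.98 and 10.94 in pooled S-shaped bodies. It read 10.39, 10.70 and 10.65 in renal vesicles, and 10.40, 10.55 and 10.59 in collecting ducts. All 6 S-shaped body arrays were above all 6 of the others, by a narrow margin at single S-shaped body replicate 4. Pooled S-shaped bodies were higher than collecting ducts by 0.47 ± 0.11, or 1.38-fold (limma, adjusted p = 0.00582), and higher than renal vesicles by 0.40 ± 0.11 (adjusted p = 0.0144). Single S-shaped bodies were higher than collecting ducts by 0.43 ± 0.13 (adjusted p = 0.0332). Their difference of 0.36 ± 0.15 from renal vesicles did not pass (adjusted p = 0.106). In order, the means were 10.98 ± 0.04 in pooled S-shaped bodies, 10.94 ± 0.17 in single ones, 10.58 ± 0.17 in renal vesicles and 10.51 ± 0.10 in collecting ducts, and the first and the last pair of neighbours did not differ beyond the spread.

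A second Itgav probe set, 104385_i_at, read 10.05, 9.58 and 9.87 in single S-shaped bodies, 9.58, 9.48 and 9.43 in pooled ones, 8.80, 9.34 and 9.08 in renal vesicles and 8.82, 9.03 and 8.88 in collecting ducts. Both S-shaped body groups stood above both other groups without overlap on this probe set too, and all 4 of those differences passed the test, from 0.42 between pooled S-shaped bodies and renal vesicles (adjusted p = 0.0466) to 0.92 for single S-shaped bodies against collecting ducts (adjusted p = 0.00338). The 0.42 was no longer called without renal vesicle replicate 2 or 4 or any 1 pooled replicate (adjusted p of 0.0741 to 0.155). Scaling to the 75th percentile (0.25, adjusted p = 0.182), no filter (adjusted p = 0.0633) and no mean-variance trend (adjusted p = 0.101) also ended that call. Single S-shaped bodies against renal vesicles were no longer called without renal vesicle replicate 2 or 4 or single replicate 3 or 5 (adjusted p of 0.0606 to 0.09). The third probe set, 98366_at, was close to background in every group and none of its differences passed. The losses that follow are those of the main probe set. The difference of pooled S-shaped bodies from renal vesicles no longer passed with arrays scaled to their 75th percentile (0.12, adjusted p = 0.506), without the mean-variance trend (adjusted p = 0.0796), without renal vesicle replicate 2 (0.31, adjusted p = 0.0507) and without pooled replicate 1 (0.38, adjusted p = 0.0517). The single S-shaped body difference from collecting ducts failed in 5 of the 6 fits that left out 1 array, with adjusted p between 0.0644 and 0.131 in those 5, and also with no filter (adjusted p = 0.0567) and without the trend (adjusted p = 0.16).

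**Figure D2:**
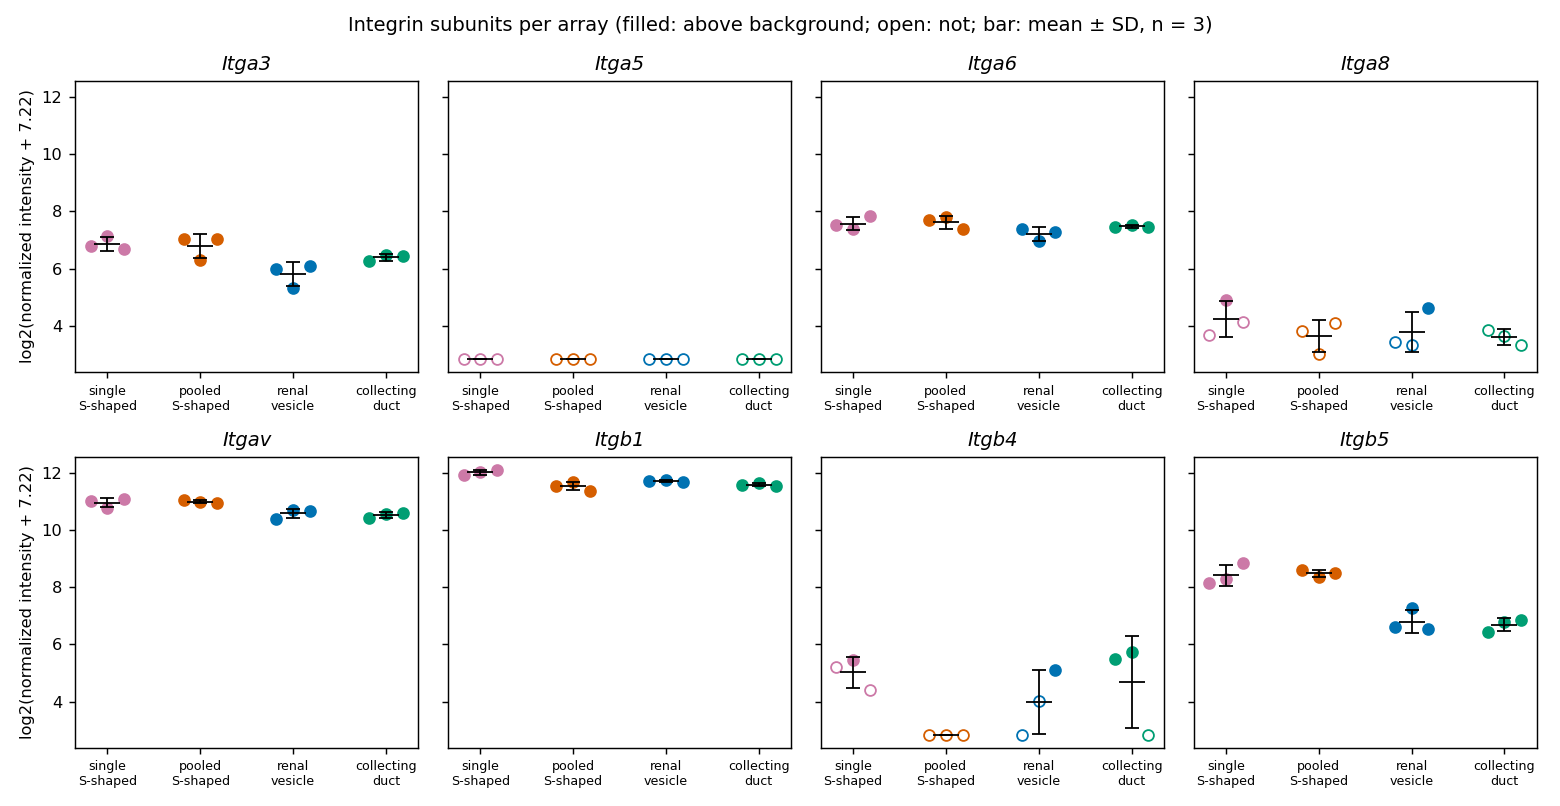
Log2 of normalized intensity plus the pseudocount for the main probe set of each of the 8 integrin genes, 1 point per array in each of the 4 groups, with the mean and SD of 3 arrays. Filled points are above the background of their array, and the S-shaped body arrays stand apart from the others most clearly for Itgb5.

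Itgb1, the beta subunit shared by most of these receptors, gave 2 answers from 2 probe sets. The main one, 100123_f_at, read 11.93, 12.02 and 12.09 in single S-shaped bodies, 11.55, 11.67 and 11.37 in pooled ones, 11.70, 11.75 and 11.69 in renal vesicles and 11.57, 11.64 and 11.52 in collecting ducts. The single S-shaped body arrays were the highest 3 of the 12, and pooled S-shaped bodies and collecting ducts overlapped. Only the difference of single S-shaped bodies from collecting ducts passed on this probe set, at 0.44 ± 0.10 (limma, adjusted p = 0.00935). Pooled S-shaped bodies differed from collecting ducts by −0.05 ± 0.09 (95% interval −0.25 to 0.16, adjusted p = 0.743). The order of means was single S-shaped bodies at 12.01 ± 0.08, renal vesicles at 11.71 ± 0.03, collecting ducts at 11.58 ± 0.06 and pooled S-shaped bodies at 11.53 ± 0.15, and no difference between neighbours in that order passed the test.

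The other Itgb1 probe set, 100124_r_at, read 10.36, 10.31 and 10.40 in single S-shaped bodies, 10.69, 10.66 and 10.34 in pooled ones, 9.76, 10.41 and 9.63 in renal vesicles and 9.48, 9.50 and 9.56 in collecting ducts. Here both S-shaped body groups stood above collecting ducts without overlap, while renal vesicle replicate 3 reached their level. Pooled S-shaped bodies were higher than collecting ducts by 1.05 ± 0.19 (adjusted p = 0.00119) and higher than renal vesicles by 0.63 ± 0.19 (adjusted p = 0.0223). That call against renal vesicles was lost without renal vesicle replicate 2 or 4 or pooled replicate 1 or 2 (adjusted p of 0.0733 to 0.087). Scaling to the 75th percentile (0.39, adjusted p = 0.0921), no filter (adjusted p = 0.0701) and no mean-variance trend (adjusted p = 0.0584) also ended it. Changes of the main Itgb1 probe set moved with the scaling: with arrays scaled to their 75th percentile, renal vesicles against collecting ducts became 0.69 (adjusted p = 0.00478) and single against pooled S-shaped bodies 1.59 (adjusted p = 0.00608). The call on single S-shaped bodies against collecting ducts was lost without the mean-variance trend (adjusted p = 0.132).

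**Figure D3:**
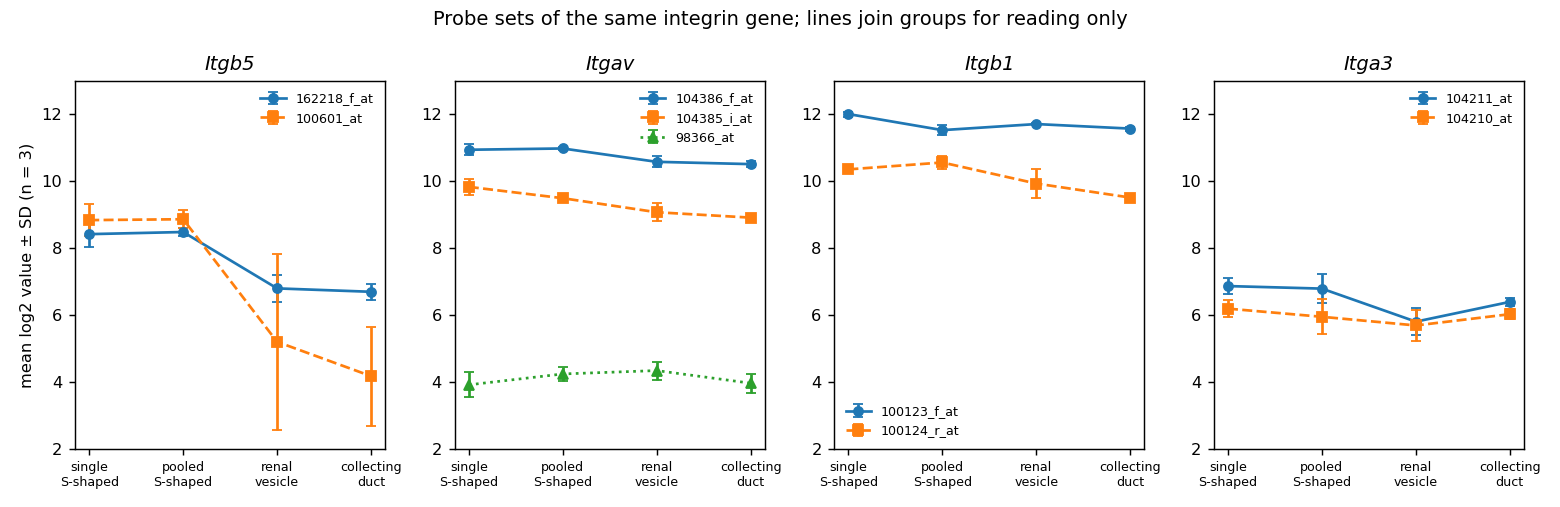
Mean log2 value with SD (n = 3) per group for every probe set of Itgb5, Itgav, Itgb1 and Itga3. Both Itgb5 probe sets are lower in renal vesicles and collecting ducts than in S-shaped bodies, whereas the Itgb1 probe sets differ in which S-shaped body group is higher and in where renal vesicles stand.

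Itga3, the alpha subunit of a laminin receptor known from podocytes, was lowest in renal vesicles. Its main probe set, 104211_at, read 6.78, 7.14 and 6.68 in single S-shaped bodies, 7.05, 6.29 and 7.03 in pooled ones, 6.0, 5.33 and 6.08 in renal vesicles and 6.26, 6.47 and 6.45 in collecting ducts. Renal vesicle arrays lay below every array of the other groups, while pooled S-shaped bodies overlapped both single ones and collecting ducts. Pooled S-shaped bodies were higher than renal vesicles by 0.99 ± 0.28, or 1.98-fold (limma, adjusted p = 0.0161), and single ones by 1.06 ± 0.33 (adjusted p = 0.0434). Renal vesicles differed from collecting ducts by −0.59 ± 0.28, which did not pass (adjusted p = 0.149). The means ran from 6.87 ± 0.24 in single S-shaped bodies through 6.79 ± 0.43 in pooled ones and 6.39 ± 0.12 in collecting ducts to 5.80 ± 0.41 in renal vesicles, with no neighbouring pair past the test.

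The second Itga3 probe set, 104210_at, ran from 5.16 to 6.40 over all 12 arrays, its groups overlapped, and none of its 6 differences passed (0.26 ± 0.31 between pooled S-shaped bodies and renal vesicles, adjusted p = 0.557). The pooled difference on the main probe set no longer passed without pooled replicate 1 (0.86, adjusted p = 0.0647) or without pooled replicate 3 (0.87, adjusted p = 0.0626). The single S-shaped body difference failed in all 6 fits that left out 1 array, with changes of 0.83 to 1.20 and adjusted p of 0.0588 to 0.13, and with no filter on dim probe sets (adjusted p = 0.0642).

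Itga6, the laminin receptor subunit that pairs with ITGB1 or ITGB4, was measured above background on all 12 arrays and none of its differences passed. It read 7.52, 7.37 and 7.84 in single S-shaped bodies, 7.69, 7.81 and 7.37 in pooled ones, 7.40, 6.95 and 7.29 in renal vesicles and 7.44, 7.53 and 7.47 in collecting ducts. Only renal vesicles and collecting ducts did not overlap, by a narrow margin. The difference nearest to the threshold was that of pooled S-shaped bodies from renal vesicles, 0.41 ± 0.18 with a 95% interval of 0.00 to 0.81 (adjusted p = 0.107). The order of means was 7.62 ± 0.23 in pooled S-shaped bodies, 7.58 ± 0.24 in single ones, 7.48 ± 0.05 in collecting ducts and 7.21 ± 0.23 in renal vesicles.

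Itgb4, which pairs with ITGA6 in hemidesmosomes, was near the limit of measurement. It read 5.20, 5.46 and 4.42 in single S-shaped bodies, 2.85 on all 3 pooled S-shaped body arrays, 2.85, 4.01 and 5.09 in renal vesicles and 5.48, 5.73 and 2.85 in collecting ducts. It was above background on 1 of 3 single S-shaped body arrays, 0 of 3 pooled ones, 1 of 3 from renal vesicles and 2 of 3 from collecting ducts. With so many arrays below background no size of a difference is given. Pooled S-shaped bodies against collecting ducts did not pass (adjusted p = 0.0681), but were called lower without collecting duct replicate 3, the array at the floor (adjusted p = 0.00386), and with array weights (adjusted p = 0.0321). Single against pooled S-shaped bodies did not pass either (adjusted p = 0.0702), but single ones were called higher without single replicate 5 (adjusted p = 0.0496).

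Itga8, the nephronectin receptor subunit, was above background on 2 of 12 arrays with its main probe set, single S-shaped body replicate 4 at 4.91 and renal vesicle replicate 4 at 4.61. Its levels elsewhere lay between 3.01 and 4.12, the groups overlapped and no difference passed. Its second probe set was above background on no array. Itga5, the fibronectin receptor subunit, stood at the floor of 2.85 on all 12 arrays and did not reach the signal needed for testing, so it gives no value for a difference. These readings bound what the probe sets could detect and do not show that the genes were silent.

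Counted over genes by their main probe set, 7 of the 8 integrins passed the filter on dim probe sets, and 12 of their 14 probe sets did. A call is an adjusted p under 0.05 in limma over 9316 tested probe sets. In pooled S-shaped bodies against collecting ducts, 2 integrin genes were higher (Itgav and Itgb5), 0 were lower and 5 did not pass, beside 18.2% of all tested probe sets higher and 20.0% lower. In pooled S-shaped bodies against renal vesicles, 3 were higher (Itga3, Itgav and Itgb5) and 0 lower, beside 17.5% higher and 19.2% lower among all. In renal vesicles against collecting ducts limma called 0 of the 7, and 0 had an unadjusted p under 0.05, beside 12.3% higher and 11.6% lower.

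Single S-shaped bodies had 3 integrin genes higher than collecting ducts (Itgav, Itgb1 and Itgb5), beside 16.0% of all tested probe sets higher and 17.9% lower. They had 2 higher than renal vesicles (Itga3 and Itgb5), beside 12.5% higher and 14.6% lower. Against pooled S-shaped bodies limma called 0 of the 7, with 2 at an unadjusted p under 0.05 (Itgb1 and Itgb4), beside 0.247% higher and 0.150% lower. No integrin gene was called lower in any of the 6 comparisons. These comparisons share arrays, so their counts are not independent, and 7 genes are too few to set the integrins apart from the rest of the array. Of the 7, the median log2 change was 0.14 in pooled S-shaped bodies against collecting ducts, 0.40 against renal vesicles and 0.07 in renal vesicles against collecting ducts, beside −0.07, −0.03 and −0.02 over all tested probe sets.

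**Figure D4:**
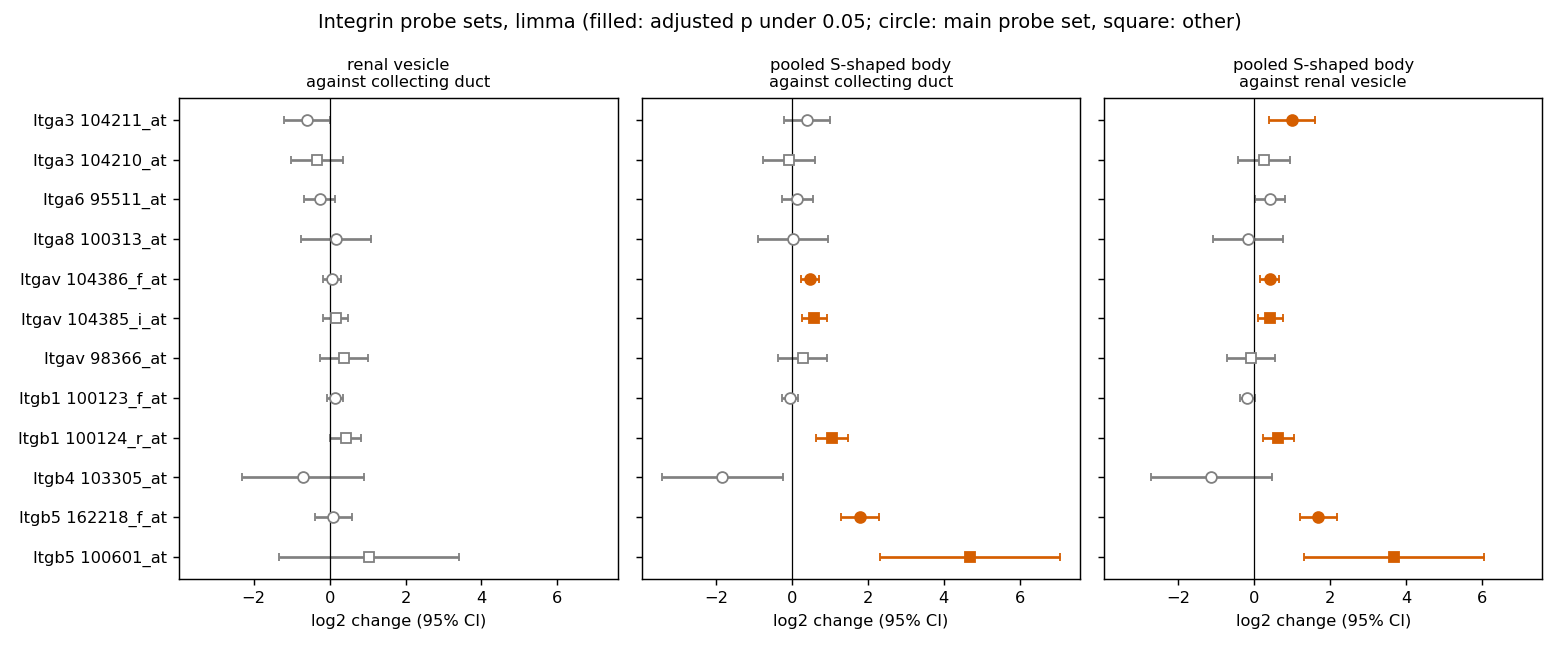
Log2 change with its 95% interval for the 12 tested integrin probe sets in 3 comparisons, circles for main probe sets and squares for others, filled where the adjusted p was under 0.05. Both Itgb5 probe sets lie to the right of 0 in both comparisons of pooled S-shaped bodies, and no probe set passed in renal vesicles against collecting ducts.

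On the intensity scale as deposited, without normalization between arrays, the median of all tested probe sets shifted by between −2.56 and 0.94 depending on the comparison, so changes there were read relative to that median. Unadjusted for it, Itgb5 in single S-shaped bodies gave −1.30 against collecting ducts (adjusted p = 0.0443) and 0.15 against renal vesicles (adjusted p = 0.844), and Itgav in pooled S-shaped bodies gave 0.04 against collecting ducts (adjusted p = 0.87). Relative to it, Itgb5 was 1.84 higher in pooled S-shaped bodies than in collecting ducts, 1.88 higher than in renal vesicles, and in single S-shaped bodies 1.26 and 1.21 higher than in these same groups. Itgav was 0.50 above the median in pooled S-shaped bodies against collecting ducts and 0.36 against renal vesicles, but in single S-shaped bodies only 0.24 above it against collecting ducts and at it against renal vesicles.

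The genes whose pattern over the 12 arrays was most like an integrin called in the fit of pooled S-shaped bodies, renal vesicles and collecting ducts were found by the root-mean-square difference of log2 values, each centred on its own mean, among 6760 genes. For Itgb5 they were Septin7, at a difference of 0.181, and Wsb2 at 0.239, beside a median of 1.06 over all candidates. Septin7 averaged 10.24 in single S-shaped bodies, 10.44 in pooled ones, 8.55 in renal vesicles and 8.56 in collecting ducts. For Itgav they were Slc30a5 at 0.111 and Son at 0.144, beside a median of 0.620. For Itga3 they were Cript at 0.259 and Psg17 at 0.263, beside 0.765. All 12 points share 1 normalization and 4 group means, so the likeness is a description.

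Other integrin subunits were mostly dim. Of 18 listed, 10 were measured and 9 tested. In renal vesicles against collecting ducts 0 were higher and 2 lower, beside 12.3% and 11.6% of all tested probe sets, with a median log2 change of 0.22 beside −0.02 over all. Itga7, a laminin receptor subunit known from muscle, read 3.25, 4.52 and 2.85 in renal vesicles, with only the 4.52 of replicate 3 above background, against 5.34 ± 0.36 in collecting ducts (SD, n = 3; adjusted p = 0.00872). Itgb7, a leukocyte beta subunit, was at 4.87 ± 0.28 in renal vesicles and 5.89 ± 0.26 in collecting ducts (adjusted p = 0.0189), a call lost without collecting duct replicate 3 (adjusted p = 0.0761) or renal vesicle replicates 2 (adjusted p = 0.0535) or 4 (adjusted p = 0.0522).

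In pooled S-shaped bodies against collecting ducts 2 other integrin subunits of 9 were higher and 1 lower, near the 18.2% and 20.0% of all tested probe sets, with a median of 0.60 beside −0.07. Itga4, a receptor subunit for VCAM1 and fibronectin, was at 6.0 ± 0.36 in pooled S-shaped bodies and below background in collecting ducts, at least 2.46-fold higher (adjusted p = 0.0083, or 0.0776 with all 12 arrays in 1 fit). Itga2, a collagen receptor subunit, passed the test (adjusted p = 0.04) but was above background on no array of either group, so it has no fold, and its call was lost in 5 of the 6 fits that left out 1 array, with adjusted p up to 0.134. Itgb7 was the gene that fell, to 5.11 ± 0.29 in pooled S-shaped bodies, against 5.89 ± 0.26 in collecting ducts (adjusted p = 0.0412), a call lost in 5 of those 6 fits (up to adjusted p = 0.147) and with arrays scaled to their 75th percentile (adjusted p = 0.0551). Against renal vesicles 2 were higher and 0 lower, beside 17.5% and 19.2% of all, with a median of 0.24 beside −0.03. These were Itga7 (adjusted p = 0.00573) and Itga4 (adjusted p = 0.0175), each above background on 3 of 3 pooled S-shaped body arrays and 1 of 3 renal vesicle arrays. The Itga4 call was lost with no filter (adjusted p = 0.0614) and without renal vesicle replicate 4 (adjusted p = 0.0574), pooled replicate 1 (adjusted p = 0.065) or pooled replicate 2 (adjusted p = 0.0509).

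Among the ligands of integrins, the matrix proteins these receptors bind, 21 of 27 listed genes were measured and 19 tested. In pooled S-shaped bodies 11 were higher and 2 lower than in collecting ducts, beside 18.2% and 20.0% of all tested probe sets, with a median change of 1.42 beside −0.07. Col1a2, a chain of type I collagen, averaged 10.75 ± 0.20 in pooled S-shaped bodies and stood at the floor on all 3 collecting duct arrays, at least 66.2-fold higher (adjusted p = 9.09e-05). Lama4, the laminin alpha 4 chain of vessel basement membranes, was at 8.55 ± 0.47 and again at the floor in collecting ducts, at least 14.4-fold higher (adjusted p = 5.14e-08). Nid1, which links laminin to collagen IV, was at least 13.7-fold higher (adjusted p = 8.89e-07). Col1a2 is also 1 of the 12 stromal markers, which had 11 called higher in this comparison, as were all 11 endothelial markers; their part in the ligand result was not tested.

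Renal vesicles had 8 ligands higher and 4 lower than collecting ducts, beside 12.3% and 11.6% of all, with a median of 0.78 beside −0.02. Lama4 reached 9.88 ± 0.05 in renal vesicles, at least 36.1-fold above collecting ducts (adjusted p = 3.22e-08). Lamb3, a chain of the laminin that hemidesmosomes bind, was at the floor on all renal vesicle arrays, against 6.90 ± 0.31 in collecting ducts, at least 5.09-fold lower (adjusted p = 1.86e-06). Lama1, the laminin alpha 1 chain of early epithelial basement membranes, was at 7.95 ± 0.63 in renal vesicles and, with 1 of 3 arrays above background, at 3.93 ± 1.00 in collecting ducts (adjusted p = 0.000179).

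Pooled S-shaped bodies had 8 ligands higher and 3 lower than renal vesicles, beside 17.5% and 19.2% of all, with a median of 0.67 beside −0.03. Col1a2 was higher (adjusted p = 0.002), at 10.75 ± 0.20 against renal vesicle arrays at 2.85, 8.30 and 5.84, of which 2 were above background and replicate 3 was again the highest. Lama3, the alpha chain that pairs with Lamb3, was at 5.27 ± 0.79 in pooled S-shaped bodies, above background on 2 of 3 arrays, and below background in renal vesicles, at least 1.65-fold higher (adjusted p = 0.000497). Lama1 fell in pooled S-shaped bodies to 5.75 ± 0.53, against 7.95 ± 0.63 in renal vesicles (adjusted p = 0.00504).

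Cytoplasmic adhesion proteins connect the integrin tails to actin. Of 24 listed, 16 were measured and 13 tested. Pooled S-shaped bodies had 5 higher and 0 lower than collecting ducts, beside 18.2% and 20.0% of all, with a median of 0.53 beside −0.07. Fermt2, the integrin activator kindlin-2, was at 10.51 ± 0.18 in pooled S-shaped bodies, against 8.74 ± 0.17 in collecting ducts (adjusted p = 4.6e-06). Tln1, or talin 1, which binds beta subunit tails, was higher by 1.30 ± 0.19 (adjusted p = 0.000267), and Actn4, an actin cross-linker, by 1.10 ± 0.19 (adjusted p = 0.000819).

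Against renal vesicles 7 of these proteins were higher and 1 lower in pooled S-shaped bodies, beside 17.5% and 19.2% of all, with a median of 0.55 beside −0.03. Bcar1, an adhesion adaptor also called p130Cas, was higher (adjusted p = 0.00749), at 5.71 ± 0.23 in pooled S-shaped bodies against 3.23, 2.85 and 5.10 in renal vesicles, where only the last was above background. Rsu1, a partner of the ILK and PINCH complex, was higher by 1.22 ± 0.23 (adjusted p = 0.0018) and Actn4 by 1.19 ± 0.19 (adjusted p = 0.000586). In renal vesicles against collecting ducts 2 were higher and 1 lower, beside 12.3% and 11.6% of all, with a median of −0.09 beside −0.02. Bcar1 was the one that fell, against 6.73 ± 0.15 in collecting ducts (adjusted p = 0.00111). Fermt2 was higher by 1.29 ± 0.14 (adjusted p = 7.63e-05) and Actn1, a second actin cross-linker, by 0.56 ± 0.15 (adjusted p = 0.0207). The Actn1 call was lost without renal vesicle replicate 4 (adjusted p = 0.0503), collecting duct replicate 1 (adjusted p = 0.0617) or collecting duct replicate 3 (adjusted p = 0.0621), with no filter (adjusted p = 0.0596) and without the trend (adjusted p = 0.07).

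Hemidesmosome and tetraspanin partners, through which ITGB4 reaches keratin filaments or ITGA3 and ITGA6 reach membrane microdomains, had more genes lower than higher in both pooled S-shaped bodies and renal vesicles against collecting ducts. Of 14 listed, 13 were measured and 10 tested. The hemidesmosome genes Col17a1, Krt5 and Krt14 were above background on no array of any group, so the list gives no measured level for them. Pooled S-shaped bodies had 3 higher and 6 lower than collecting ducts, beside 18.2% and 20.0% of all, with a median of −0.80. Renal vesicles had 1 higher and 5 lower, beside 12.3% and 11.6%, with a median of −0.60. Single S-shaped bodies had 4 higher and 5 lower than collecting ducts, beside 16.0% and 17.9% of all (median −0.36 beside −0.07). Against renal vesicles they had 4 higher and 1 lower, beside 12.5% and 14.6% (median 0.26 beside −0.03). Krt8, a keratin of simple epithelia, was above background on 2 of 3 pooled S-shaped body arrays (2.85, 5.24 and 5.12) and 1 of 3 renal vesicle arrays (2.85, 6.47 and 3.41), and averaged 11.07 ± 0.15 in collecting ducts. It was lower in pooled S-shaped bodies (adjusted p = 0.000115) and in renal vesicles (adjusted p = 0.000194). Krt18, its partner keratin, was below background in pooled S-shaped bodies, at least 37-fold lower than in collecting ducts (adjusted p = 5.51e-08), and fell in renal vesicles to 5.32 ± 0.27, against 9.87 ± 0.36 in collecting ducts (adjusted p = 3e-07). Both keratins also stand among the ureteric bud and collecting duct markers, of which 10 were tested and 6 called lower in pooled S-shaped bodies than in collecting ducts.

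The tetraspanin Tspan4 was among those higher. It was at 7.70 ± 0.48 in pooled S-shaped bodies and 6.44 ± 0.29 in renal vesicles, and at the floor on all 3 collecting duct arrays, so it was at least 7.98-fold (adjusted p = 4.56e-07) and at least 3.33-fold higher (adjusted p = 5.66e-06). Pooled S-shaped bodies against renal vesicles had 2 of these partners higher and 3 lower, beside 17.5% and 19.2% of all, with a median of 0.08 beside −0.03. Tspan4 was higher by 1.26 ± 0.28 (adjusted p = 0.00475), Krt18 was at least 1.57-fold lower (adjusted p = 0.00212), and Cd63, a tetraspanin of endosomes, fell in pooled S-shaped bodies to 7.5 ± 0.08, against 8.68 ± 0.51 in renal vesicles (adjusted p = 0.00321).

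Under 2 other scalings, also added after seeing the data, all 79 calls made on genes of these 4 lists in the 3 comparisons stayed on their side of the median of all tested probe sets, though counts by sign moved with that median. On the deposited scale, renal vesicles against collecting ducts had 6 ligands higher and 8 lower and 0 adhesion proteins higher and 11 lower. The median of all tested probe sets there was −1.39. Pooled S-shaped bodies against renal vesicles had 14 ligands and 12 adhesion proteins higher and 0 of either lower, beside a median of 0.94. Many more of all probe sets were called on that scale too, as the totals at the end show. These counts are therefore no result about the lists. At the 75th percentile, adhesion proteins in pooled S-shaped bodies against renal vesicles were 5 higher and 1 lower, beside a median of −0.04. Of the 34 differences of listed genes named here, 29 kept their call in every fit that left out 1 array. Over all settings 22 kept it and 12 lost it in at least 1. On the deposited scale Fermt2 was not called in renal vesicles against collecting ducts (−0.13, adjusted p = 0.57). Nor were Lama1 (adjusted p = 0.154), Krt18 (adjusted p = 0.42) and Cd63 (adjusted p = 0.718) there in pooled S-shaped bodies against renal vesicles. Without renal vesicle replicate 3, an alternative chosen after seeing the data, renal vesicles had 9 ligands higher and 4 lower than collecting ducts, and pooled S-shaped bodies had 9 higher and 3 lower than renal vesicles. The medians over all tested probe sets were then −0.01 and −0.03.

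**Figure D5:**
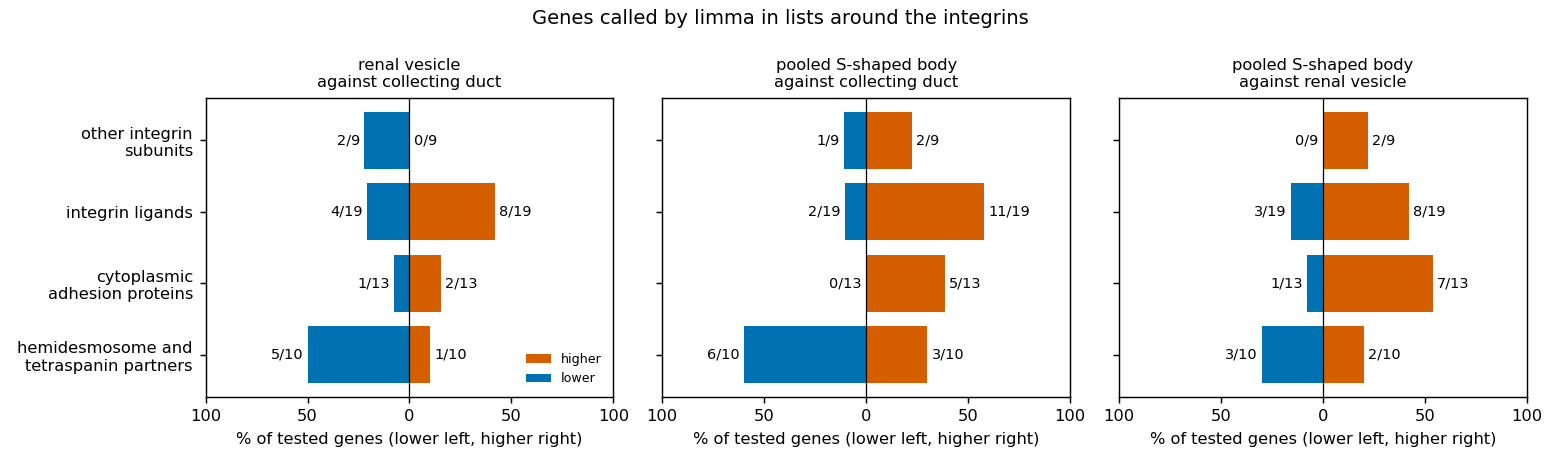
Share of tested genes called higher (to the right) and lower (to the left) in 4 lists around the integrins, for 3 comparisons, with counts over genes tested beside each bar. Ligands lean to higher and hemidesmosome and tetraspanin partners to lower in pooled S-shaped bodies against collecting ducts.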

How the data were processed

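The authors' deposited values are probe set intensities on a linear scale, with values below 0 and array medians up to 17.8 times apart. Per the submitters' processing notes GCOS was used. How probe pairs were summarised, corrected for background and scaled is not given in these sources.

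The 66 control probe sets were left out and arrays were quantile normalized. Values below 0 were set to 0, 7.22 (25% of the median) was added and log2 taken. Those whose mean fell below the 25th percentile of all were not tested. Background was the size of each array's 5th percentile of deposited intensity. No 2 arrays were identical. Tests were limma 3.58.1 in R 4.3.3, with trend and Benjamini-Hochberg adjustment, two-sided, with a call at 0.05. Pooled S-shaped bodies, renal vesicles and collecting ducts shared a fit of 9 arrays, and each comparison of single S-shaped bodies used 6. A lower bound on a fold sets the bright group against background in the other. The test was checked on simulated data with 200 changed probe sets.

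Named are every integrin, the 3 called genes of each list with the largest change per comparison of the 9-array fit, and the 2 genes nearest in pattern to each integrin called in the 9-array fit. Gene symbols come from the platform annotation, in which 396 probe sets have several symbols and 1193 none. The integrins and lists were chosen with earlier results of these data known. Alternatives covered the pseudocount, scaling, filter, trend, array weights, arrays in the fit, a replicate block and leaving out each array.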

Additional observations from a re-analysis of the deposited data

How the results depend on the processing

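Leaving out 1 array kept the direction and the call of 235 of 252 integrin changes, ended 15 calls and added 2, and other settings kept 411 of 454, ended 12 calls, added 20 and turned 11. Changes not called either way differed in sign from the reported one in 18 of those 252 and 21 of those 454. All 11 turned values came on the deposited scale, where array medians differ: in renal vesicles against collecting ducts −1.26 for Itgav, −0.95 for Itgb1 and −1.45 for Itgb5, in pooled S-shaped bodies against renal vesicles 0.54 for Itgb1, in single against pooled S-shaped bodies −2.35 for Itga3, in single S-shaped bodies against collecting ducts −2.38 for Itga3, −2.91 for Itga6, −2.32 for Itgav, −1.56 for Itgb1 and −1.30 for Itgb5, and in single S-shaped bodies against renal vesicles −0.23 for Itga3. Another probe set turned Itgb1 to 1.05 in pooled S-shaped bodies against collecting ducts and 0.63 against renal vesicles, and Itgav to −0.10 in pooled S-shaped bodies against renal vesicles and −0.0488 in single S-shaped bodies against collecting ducts. Otherwise the cause was not tested.

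The counts of integrin genes called on the deposited scale were 5 in renal vesicles against collecting ducts, 5 in pooled S-shaped bodies against renal vesicles, 4 in single against pooled S-shaped bodies, 5 in single S-shaped bodies against collecting ducts and 0 against renal vesicles. Counts over all probe sets, given in the next paragraph, also rose on that scale in each of these comparisons. None of the counts in this paragraph is read as a result about the integrins. For the settings that follow, counts over all probe sets are given only for some comparisons, so the rest have no total beside them. With the 75th percentile they were 2 in renal vesicles against collecting ducts and 1 in single against pooled S-shaped bodies. All 12 arrays in 1 fit gave 1 in single against pooled S-shaped bodies and 4 in single S-shaped bodies against renal vesicles, where no filter gave 1. Without the trend, single S-shaped bodies against collecting ducts gave 1. With 1 array left out, counts ranged from 1 to 3 in pooled S-shaped bodies against renal vesicles, 0 to 1 in single against pooled S-shaped bodies, and were 1 throughout in single S-shaped bodies against renal vesicles.

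Over all probe sets, the deposited scale called 7268 in renal vesicles against collecting ducts (2225 as reported), 5432 in pooled S-shaped bodies against renal vesicles (3423), 8345 in single against pooled S-shaped bodies (37), 8299 in single S-shaped bodies against collecting ducts (3152) and 4349 against renal vesicles (2525). In single against pooled S-shaped bodies the 75th percentile gave 146, the filter at the 50th percentile 19, all 12 arrays 424, and leaving out 1 array 1 to 72. Leaving out 1 array gave 1539 to 2344 in single S-shaped bodies against renal vesicles.

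Same-numbered arrays of different groups did not deviate together (correlations of −0.0889 to 0.0489), so replicate numbers were not used as pairs. With the replicate number as a block, over the numbers 2 groups share, 1087 probe sets were called in renal vesicles against collecting ducts, 1507 in pooled S-shaped bodies against renal vesicles and 1170 in single S-shaped bodies against renal vesicles. The block left 1 integrin gene in pooled S-shaped bodies against renal vesicles and 0 in single S-shaped bodies against renal vesicles, where Itgb5 was 1.31 (adjusted p = 0.0673). Renal vesicles share numbers 2 and 3 with pooled S-shaped bodies and with collecting ducts, and 3 and 4 with single S-shaped bodies. These block fits thus held 2 arrays per group, and the part of the fewer arrays in the lost calls was not tested. No paired analysis was possible for single S-shaped bodies against pooled ones or collecting ducts because they share fewer than 2 numbers.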
